A study of Mus musculus with 24 samples.

Results

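The 9 genes described here belong to nitric oxide synthesis and its cofactor, to arginine supply and breakdown, and to itaconate synthesis. They are Irg1, Nos2, Gch1, Ass1, Asl, Slc7a2, Arg1, Arg2 and Odc1, and they were taken as every probe of the array whose gene name equals one of these symbols. This rule found 14 of 41174 probes and 9 of 21597 gene symbols. All 9 genes were among the 17345 genes well above background in both replicates of at least 1 condition, which were the genes tested.

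RNA came from C57BL/6 mice. Elicited peritoneal macrophages (EPM) were obtained by lavage after thioglycollate injection and plated overnight, bone marrow-derived macrophages (BMDM) were grown from marrow in L-cell conditioned medium, and resting B cells were splenocytes depleted of cells bearing CD43 or CD11b. Cells received Kdo2 lipid A (KLA), the lipid part of bacterial endotoxin and an agonist of the receptor TLR4, for 1 h or 12 h, and DMSO for 12 h was the late control of each cell type. The early control was DMSO for 1 h in BMDM and untreated cells in EPM and B cells, so that solvent and KLA cannot be told apart at 1 h in the latter. Nor can solvent and cell type where early controls or 1 h responses of EPM and BMDM are compared. In EPM and B cells, early and late controls differ in solvent as well as time. Each of the 12 conditions had 2 biological replicates, one in the Cy5 and the other in the Cy3 channel of 1 Agilent array, and the 4 arrays of a cell type lay on 1 slide. The spread between replicates therefore lacks differences between arrays, and a slide effect and the cell type cannot be told apart. Whether the replicates came from separate animals is not given in the sources used here.

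Levels below are log2 intensities after background correction with an added offset of 50, which draws the differences of dim genes towards 0. A change is the difference of mean levels, KLA minus the control of the same time, with its standard error (SE) from limma, and it was called where the p-value adjusted by Benjamini-Hochberg over all genes tested was under 0.05. A probe was detected where its spot was well above background in both replicates.

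Macrophage markers were detected 9 of 9 in every EPM and BMDM condition and 8 of 8 B cell markers in every B cell condition. B cells also had 5 to 6 of the 9 macrophage markers above background, with Itgam, Fcgr1 and Mrc1 not detected, and BMDM had 6 to 7 of 7 neutrophil markers against 4 in EPM. For B cells, the scanner files labelled KLA 1 h and DMSO 12 h went against the authors' own value table. Of its 24 columns, 4 correlated with the other of these conditions at r = 0.964 or more and with their own at r = -0.681 or less. The labels of the scanner files were kept, and the responses of B cells are given under both readings.

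Macrophages draw on arginine in competing ways. Inducible nitric oxide synthase, the product of Nos2, oxidises arginine to nitric oxide and citrulline with tetrahydrobiopterin as cofactor, whose synthesis starts with GTP cyclohydrolase from Gch1. Argininosuccinate synthase (Ass1) and argininosuccinate lyase (Asl) turn citrulline back into arginine, and the cationic amino acid transporter encoded by Slc7a2 takes arginine up from outside. The arginases Arg1, in the cytosol, and Arg2, in mitochondria, split arginine into urea and ornithine, from which ornithine decarboxylase (Odc1) makes the polyamine putrescine. Irg1, now named Acod1, encodes the enzyme that decarboxylates cis-aconitate of the citric acid cycle to itaconate, a metabolite known from activated macrophages.

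The table of RefSeq promoters held 4 of the 9 genes, and their 250 bases before the annotated start are printed because Irg1, Gch1 and Ass1 rose together in KLA-treated macrophages at 12 h while the brightest Odc1 probe did not. Capitals mark letters of a searched motif on either strand. The motifs were the TATA box (TATAAA), the GC box (GGGCGG), the CCAAT box (CCAAT), the E-box (CACGTG), the AP-1 site (TGANTCA), the cyclic AMP response element (TGACGTCA), the NF-kappaB motif and the core of the interferon-stimulated response element. Coordinates are on GRCm38.p6, for Irg1 chr14:103046762-103047011 (plus strand), Gch1 chr14:47189414-47189663 (minus strand), Ass1 chr2:31470020-31470269 (plus strand) and Odc1 chr12:17544623-17544872 (plus strand).
Irg1: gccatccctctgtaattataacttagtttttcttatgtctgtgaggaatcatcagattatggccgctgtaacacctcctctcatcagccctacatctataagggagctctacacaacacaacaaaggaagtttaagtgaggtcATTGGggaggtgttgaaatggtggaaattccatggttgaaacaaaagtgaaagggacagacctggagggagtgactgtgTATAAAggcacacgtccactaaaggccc
Gch1: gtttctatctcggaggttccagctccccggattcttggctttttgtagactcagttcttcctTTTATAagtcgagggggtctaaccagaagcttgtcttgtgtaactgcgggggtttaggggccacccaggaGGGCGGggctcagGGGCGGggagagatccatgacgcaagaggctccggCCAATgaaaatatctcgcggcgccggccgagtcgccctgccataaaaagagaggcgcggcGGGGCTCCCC
Ass1: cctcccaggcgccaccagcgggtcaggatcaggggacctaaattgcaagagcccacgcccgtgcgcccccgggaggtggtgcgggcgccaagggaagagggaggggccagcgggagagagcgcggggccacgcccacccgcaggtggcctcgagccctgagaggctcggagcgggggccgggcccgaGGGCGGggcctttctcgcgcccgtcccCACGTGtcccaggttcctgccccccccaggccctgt
Odc1: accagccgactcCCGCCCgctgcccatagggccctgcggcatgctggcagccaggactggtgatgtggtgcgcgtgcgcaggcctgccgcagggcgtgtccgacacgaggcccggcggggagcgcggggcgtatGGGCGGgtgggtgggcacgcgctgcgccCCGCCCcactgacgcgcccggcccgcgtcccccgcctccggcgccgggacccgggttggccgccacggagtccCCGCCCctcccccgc
The Irg1 sequence was 44.4% G or C and held the TATA box 28 to 23 bases before the start and the CCAAT box on the other strand. The Gch1 sequence was 59.2% G or C and held the NF-kappaB motif in its last 10 bases, with the GC box and the CCAAT box farther up. The letters of the TATA box lay there on the other strand, 188 to 183 bases before the start. Ass1 at 75.6% and Odc1 at 80% held the GC box, and Ass1 also the E-box, against a median of 52% G or C over 27025 promoters. By letters alone, the TATA box was in 13% of all promoters at this length, the GC box in 32.9%, the CCAAT box in 34.5%, the E-box in 6.05% and the NF-kappaB motif in 7.01%. The remaining motifs, AP-1, cyclic AMP and interferon, found in 6.87%, 1.62% and 3.04% of promoters, were in none of the 4 windows.

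On the array, the brightest probe of each gene lay, on mm8, at chr14:101942454-101942514 for Irg1, chr11:78775853-78775912 for Nos2, chr14:46091099-46091158 for Gch1 and chr2:31340768-31342407 for Ass1. It lay at chr5:130296797-130297382 for Asl, chr8:42416332-42416391 for Slc7a2, chr10:24605804-24605863 for Arg1, chr12:80070825-80070884 for Arg2 and chr12:17576429-17576487 for Odc1. Irg1, Gch1 and Ass1 had 2 probes each and Odc1 had 3, and the remaining genes had 1, which for Nos2 was spotted 10 times. The file also assigns the brightest Ass1 probe and both brighter Odc1 probes to a further transcript record, so that signal from near copies of these genes cannot be told apart.

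KLA raised 5 of the 9 genes in EPM and 4 in BMDM at 1 h, and 7 in each at 12 h. In either direction 5 of 9 were called in EPM at 1 h, as were 29.1% of all genes tested, and 9 of 9 at 12 h, as were 53.9%, with 4 of 9 in BMDM at 1 h, as were 28.6%, and 7 of 9 at 12 h, as were 65%. Of all genes tested, 9.39% were called higher in EPM at 1 h and 11% in BMDM, and 19.6% in EPM and 28.6% in BMDM at 12 h. The median change of the 9 genes was 1.88 in EPM and 2.29 in BMDM at 12 h, against -0.06 and -0.03 over all genes tested, and 0.27 and 0.10 at 1 h, against -0.05 and -0.03. In EPM at 12 h the remaining 2 genes, Asl and Odc1, were called lower, as were 34.3% of all genes tested, and the Odc1 value turned to 0.12 without quantile normalization between arrays. No spot of these genes was saturated.

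Detection followed the same order. In EPM 8 of the 9 genes were detected with either control and with KLA for 1 h, and 9 were with KLA for 12 h, Nos2 being the gene gained. In BMDM it was 6 of 9 in both controls and with KLA for 1 h and 9 with KLA for 12 h, with Nos2, Arg1 and Slc7a2 gained. In B cells it was 4 with DMSO for 12 h and 5 in the other conditions. Over all gene symbols the share detected was 62.0% to 70.6%. A second scanner flag marks a positive and significant signal. In both replicates it passed 8 of the 9 genes in BMDM controls and with KLA for 1 h, Arg1 and Slc7a2 included. In EPM it passed 9 untreated, Nos2 included, but 8 with KLA for 1 h or DMSO for 12 h. That flag was not counted over all genes.

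**Figure D1:**
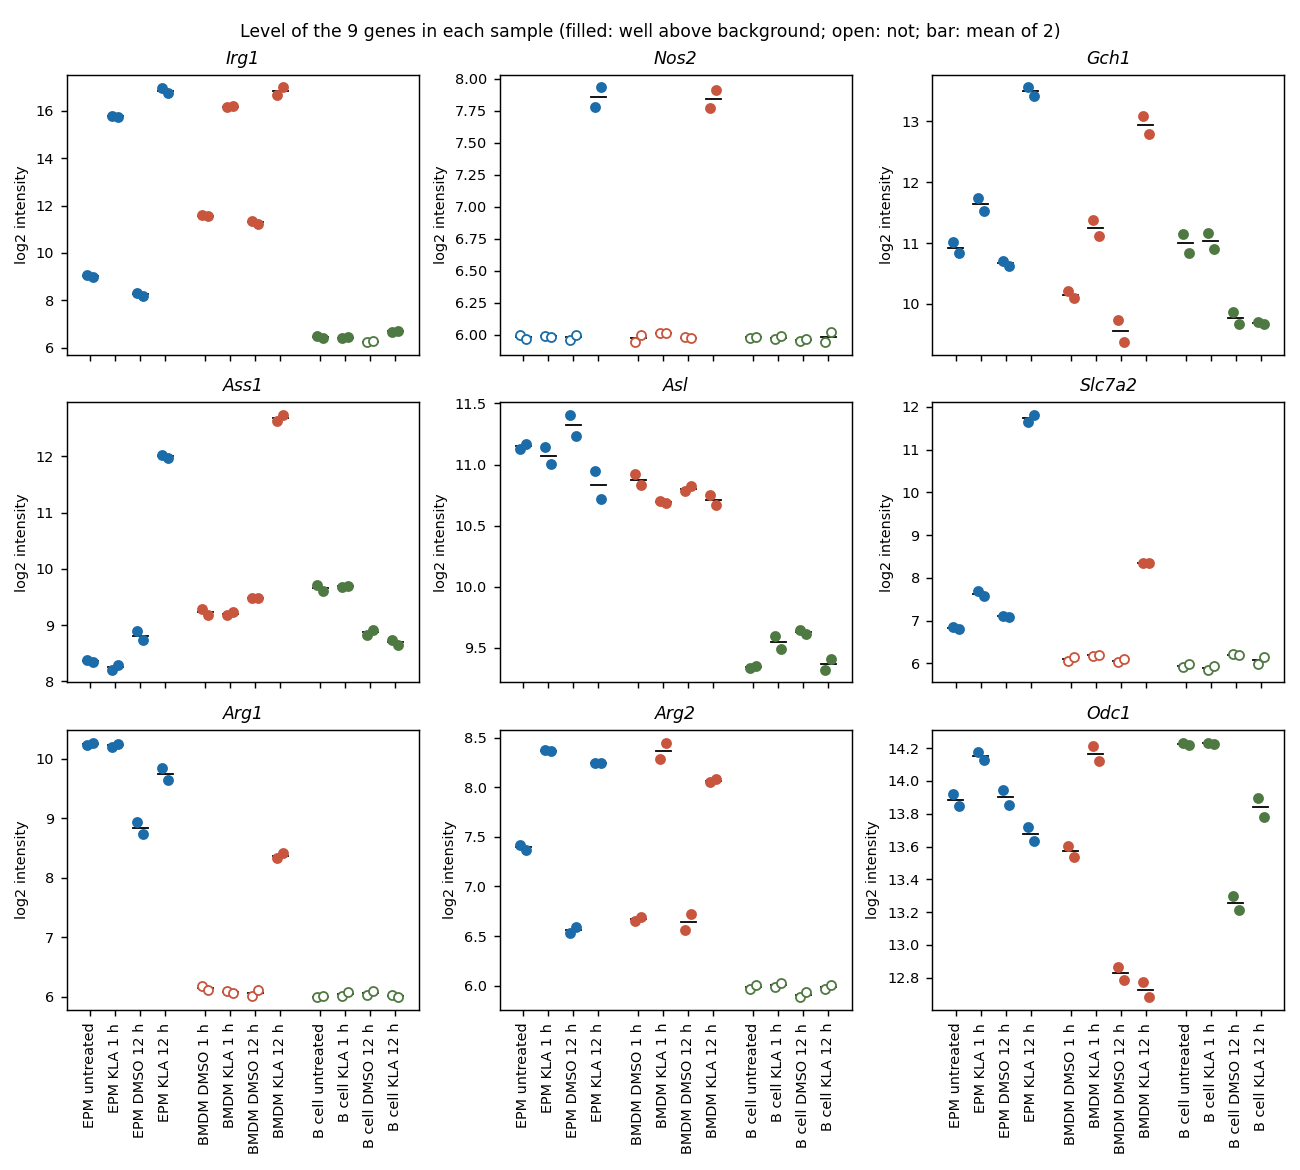
Level (log2 intensity, vertical axis) of the brightest probe of each gene in the 24 samples by condition, with EPM in blue, BMDM in red and B cells in green, filled points well above background and bars at the mean of 2 replicates. Irg1 reached 15.77 in EPM and 16.18 in BMDM by 1 h, whereas Nos2 stood above background only in the KLA 12 h samples of both macrophages.

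On the scale with the offset of 50, Irg1 made the largest change of the 9 genes in both macrophages at both times. With the processed signals of the scanner software this held except in BMDM at 12 h, where Irg1 changed by 5.45, Nos2 by 5.78 and Arg1 by 5.60, the latter genes from controls not well above background. In untreated EPM its level was 9.07 and 8.99, and after 1 h of KLA 15.79 and 15.75. At 12 h it was 8.31 and 8.20 with DMSO and 16.96 and 16.75 with KLA. KLA samples thus stood far above controls with no overlap, and the change was 6.74 ± 0.08 (SE) at 1 h, or 107-fold, and 8.60 ± 0.08 at 12 h, or 389-fold (limma, adjusted p = 2.49e-20 and 4.46e-22). In BMDM the early controls were both at 11.58 and the late controls at 11.34 and 11.24, and KLA brought Irg1 to 16.16 and 16.20 at 1 h and to 16.69 and 17.00 at 12 h. The changes were 4.60 ± 0.08 and 5.56 ± 0.08, or 24.3-fold and 47.0-fold (limma, adjusted p = 8.62e-18 and 1.28e-19).

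The levels reached with KLA at 12 h lay close together, at a mean of 16.86 in EPM and 16.85 in BMDM, while EPM minus BMDM was -3.04 ± 0.08 for the late controls and -2.55 ± 0.08 for the early controls (limma, adjusted p = 5.13e-16 and 7.82e-15). The response was accordingly larger in EPM by 2.14 ± 0.12 at 1 h and by 3.05 ± 0.12 at 12 h (limma test of the difference, adjusted p = 7.54e-10 and 8.18e-13). The summed level of neutrophil markers was 13.29 to 14.60 in BMDM and 10.13 to 11.001 in EPM, and its part in the higher Irg1 level of BMDM controls was not tested. The second Irg1 probe, whose coordinates overlap those of the first, changed by 6.66 and 8.44 in EPM and by 4.53 and 5.71 in BMDM.

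Nos2 was late in both macrophages. Its level was between 5.95 and 6.01 in all 12 control and 1 h samples of EPM and BMDM, and none of these was well above background. With KLA for 12 h it was 7.78 and 7.93 in EPM and 7.77 and 7.91 in BMDM. All 4 of these samples were well above background and above every other sample. The change was 1.88 ± 0.06 in EPM and 1.86 ± 0.06 in BMDM, at least 3.49-fold and 3.50-fold against the dimmest signal well above background (limma, adjusted p = 2.83e-15 and 2.74e-15). With the signals processed by the scanner software, which carry no such offset, the changes were 5.84 and 5.78. The difference in response between EPM and BMDM at 12 h, 0.02 ± 0.08, was not called (limma, adjusted p = 0.9), but without quantile normalization between arrays it was 0.25 and called (limma, adjusted p = 0.0141). The study counted Nos2 and Ass1 among its late genes from these EPM samples, so that their rise there is not independent evidence.

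Gch1 rose at both times. In EPM its level went from 11.01 and 10.84 to 11.74 and 11.53 at 1 h, and was 10.71 and 10.62 with DMSO against 13.56 and 13.42 with KLA at 12 h. The groups did not overlap, and the change was 0.71 ± 0.14 and 2.82 ± 0.14 (limma, adjusted p = 0.000664 and 3.25e-12). In BMDM, KLA samples were at 11.38 and 11.11 against 10.21 and 10.09 at 1 h, and at 13.09 and 12.79 against 9.74 and 9.37 at 12 h. The change was 1.09 ± 0.14 at 1 h and 3.38 ± 0.14 at 12 h, or 10.4-fold (limma, adjusted p = 7.54e-06 and 1.61e-13). The second probe, at chr14:46075999-46076058, gave smaller changes of 0.21, 1.71, 0.83 and 2.35 in the same order, and that of EPM at 1 h was not called (limma, adjusted p = 0.067). The response at 12 h was smaller in EPM, EPM minus BMDM being -0.56 ± 0.20 (limma, adjusted p = 0.0253), and this difference was not called without replicate 1 of EPM DMSO 12 h or BMDM KLA 12 h or replicate 2 of EPM KLA 12 h or BMDM DMSO 12 h (limma, adjusted p from 0.0739 to 0.145). At 1 h the difference of -0.38 ± 0.20 was not called (limma, adjusted p = 0.277) but was with the dye as a block and, at -0.61, with the second probe (limma, adjusted p = 0.00503 and 0.00154). The 12 h difference was -0.21 and not called without quantile normalization (limma, adjusted p = 0.382).

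**Figure D2:**
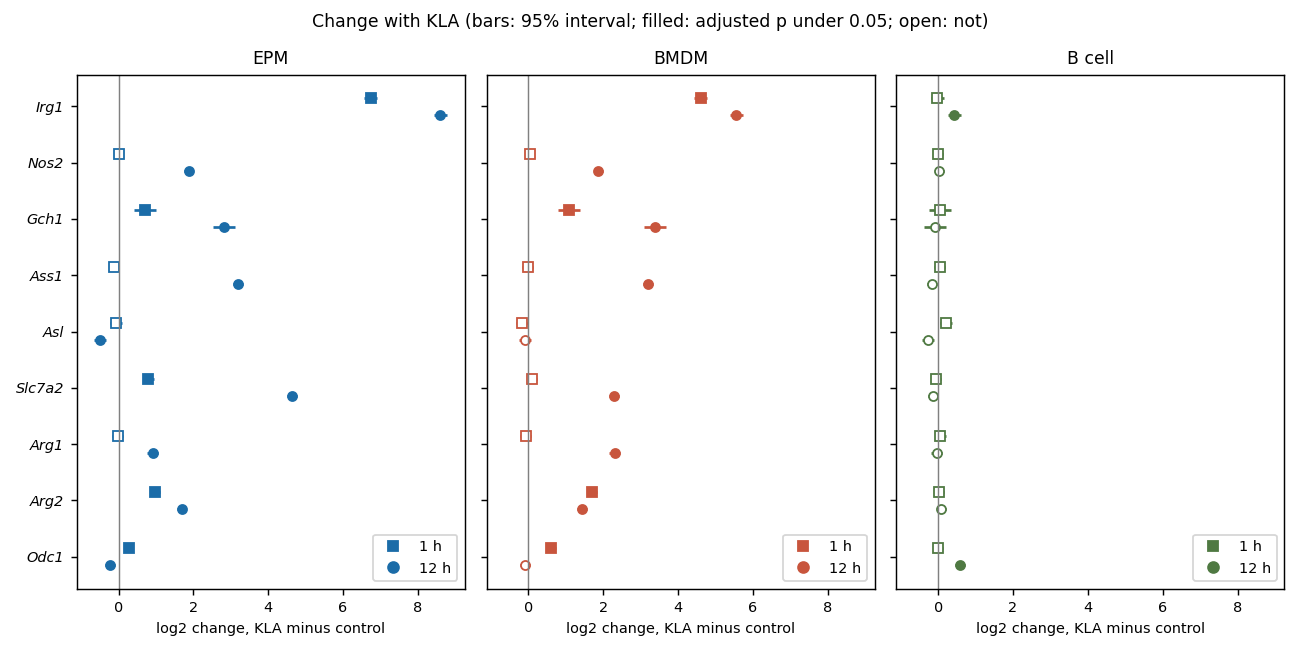
Change with KLA (log2, horizontal axis) of the 9 genes in EPM, BMDM and B cells, squares at 1 h and circles at 12 h, with 95% intervals and filled symbols where called. On this scale, with the offset of 50, Irg1 lies farthest to the right in both macrophages, at 8.60 in EPM at 12 h, and B cell symbols lie between -0.27 and 0.58.

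Among the genes that supply arginine, Ass1 and Slc7a2 rose at 12 h and Asl did not. Ass1 was at 8.39 and 8.34 in untreated EPM and 8.20 and 8.29 after 1 h of KLA. At 12 h it stood at 8.89 and 8.73 with DMSO against 12.03 and 11.98 with KLA. In BMDM it was 9.28 and 9.17 against 9.18 and 9.22 at 1 h, and 9.49 and 9.48 against 12.62 and 12.74 at 12 h. The change at 12 h was 3.19 ± 0.07 in each, or 9.15-fold in EPM and 9.16-fold in BMDM (limma, adjusted p = 9.26e-18 and 1.25e-17). At 1 h it was -0.12 ± 0.07 in EPM and -0.02 ± 0.07 in BMDM and was not called, although the second Ass1 probe was called lower in EPM at 1 h, by -0.46 (limma, adjusted p = 0.0041).

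Asl was bright and moved little. Its level was 11.13 and 11.17 in untreated EPM, 11.14 and 11.001 after 1 h of KLA, 11.41 and 11.23 with DMSO for 12 h and 10.95 and 10.72 with KLA for 12 h. The samples with KLA at 12 h lay below those with DMSO, with a change of -0.49 ± 0.08 (limma, adjusted p = 2.5e-05). In BMDM all 8 samples lay between 10.67 and 10.92. The changes of -0.18 ± 0.08 at 1 h and -0.09 ± 0.08 at 12 h were not called (limma, adjusted p = 0.0844 and 0.304). The 1 h value was called with the dye as a block (limma, adjusted p = 0.0306) and with processed signals, at -0.19 (limma, adjusted p = 0.0441). Without quantile normalization both were called lower, at -0.23 and -0.35 (limma, adjusted p = 0.0274 and 0.000537). In EPM at 1 h Asl was called with processed signals only, at -0.20 (limma, adjusted p = 0.0394). At 12 h the EPM response minus the BMDM response was -0.39 ± 0.11 (limma, adjusted p = 0.00574), and without quantile normalization between arrays that difference was 0.02.

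Slc7a2 was detected before stimulation in EPM and not in BMDM. In EPM it was at 6.85 and 6.81 untreated, 7.69 and 7.57 after 1 h of KLA, 7.12 and 7.08 with DMSO for 12 h and 11.65 and 11.81 with KLA for 12 h. The change was 0.80 ± 0.07 at 1 h and 4.63 ± 0.07 at 12 h, or 24.8-fold (limma, adjusted p = 3.1e-08 and 5.18e-20). In BMDM the control and 1 h samples, between 6.02 and 6.21, were not well above background, and KLA for 12 h gave 8.34 and 8.36. The change there was 2.29 ± 0.07, at least 4.76-fold (limma, adjusted p = 1.18e-15). At 1 h the change was 0.10 ± 0.07 and not called, a size and SE that the offset draws towards 0. Under 14 other settings it reached up to 1.22 and was called in none. The response was larger in EPM by 0.70 ± 0.09 at 1 h and by 2.34 ± 0.09 at 12 h (limma, adjusted p = 4.49e-05 and 1.06e-12). With processed signals the change at 12 h was 5.51 in EPM and 5.43 in BMDM, and the difference in response was then 0.09 and not called (limma, adjusted p = 0.934). The difference at 1 h was 0.22 with these signals and not called either (limma, adjusted p = 0.922).

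Of the arginases, Arg1 separated the macrophages before stimulation and Arg2 rose with KLA in both. Arg1 was well above background in untreated EPM, at 10.23 and 10.27, but not in early BMDM controls, at 6.18 and 6.12, a difference of 4.10 ± 0.07, or at least 17.2-fold (limma, adjusted p = 9.72e-19). After 1 h of KLA it was 10.20 and 10.26 in EPM and 6.10 and 6.06 in BMDM, and neither change was called. At 12 h it was 8.93 and 8.73 with DMSO and 9.85 and 9.65 with KLA in EPM. In BMDM it was 6.01 and 6.11 with DMSO and, detected for the only time, 8.33 and 8.41 with KLA. The change was 0.92 ± 0.07 in EPM and 2.31 ± 0.07, at least 4.82-fold, in BMDM (limma, adjusted p = 2.57e-09 and 2.57e-15). The EPM response at 12 h was smaller, with a difference of -1.39 ± 0.10 (limma, adjusted p = 2.53e-09). Since the BMDM control was not well above background this size depends on the offset, and it was -4.56 with processed signals.

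The EPM value depends on the control. Arg1 fell by 1.42 from untreated EPM to EPM with DMSO for 12 h (limma, adjusted p = 2.04e-10), and samples with KLA for 12 h lay below the untreated samples, by -0.50 ± 0.07 (limma, adjusted p = 7.03e-06). Arg1 in EPM was thus higher than in the late control and lower than in the early control. In BMDM the change against the early control was 2.22 ± 0.07, close to that against the late control.

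**Figure D3:**
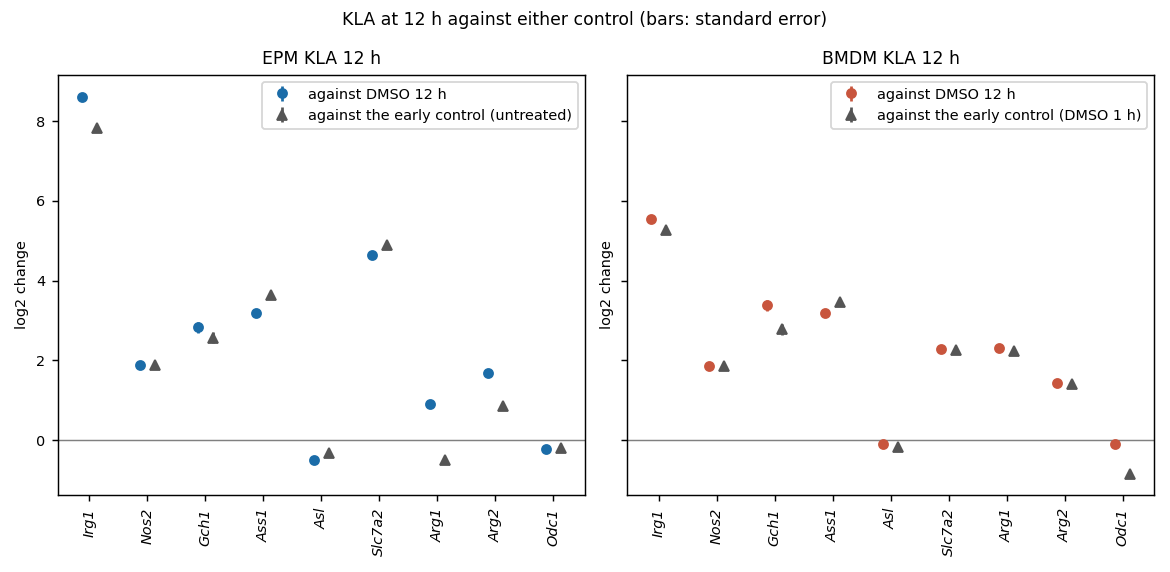
Change at 12 h of KLA (log2, vertical axis, with SE) against DMSO for 12 h (circles) and against the early control (triangles) in EPM and BMDM. Arg1 in EPM changes from 0.92 to -0.50 with the control, and Odc1 in BMDM from -0.10 to -0.84.

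Arg2 rose early and late in both macrophages. In EPM it was at 7.42 and 7.37 untreated, 8.37 in both samples after 1 h of KLA, 6.53 and 6.59 with DMSO for 12 h and 8.24 and 8.25 with KLA for 12 h. The change was 0.98 ± 0.06 at 1 h and 1.69 ± 0.06 at 12 h (limma, adjusted p = 4.04e-10 and 2.57e-14), and the KLA levels at the 2 times were close while the control fell by 0.83. In BMDM it was at 6.66 and 6.69 against 8.29 and 8.45 at 1 h, and at 6.57 and 6.72 against 8.06 and 8.08 at 12 h. The change was 1.70 ± 0.06 and 1.43 ± 0.06 (limma, adjusted p = 1.13e-13 and 2.25e-13). The EPM response minus the BMDM response was -0.72 ± 0.08 at 1 h and 0.26 ± 0.08 at 12 h (limma, adjusted p = 9.76e-06 and 0.0176), the latter lost without replicate 1 of EPM DMSO 12 h or BMDM KLA 12 h or replicate 2 of BMDM DMSO 12 h (limma, adjusted p from 0.0506 to 0.109).

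Odc1 rose at 1 h in both macrophages, by less than Arg2, and did not rise at 12 h by its brightest probe. In EPM it was at 13.92 and 13.85 untreated and 14.18 and 14.13 after 1 h of KLA, and at 13.94 and 13.85 with DMSO and 13.72 and 13.63 with KLA at 12 h. The change was 0.27 ± 0.06 at 1 h and -0.22 ± 0.06 at 12 h (limma, adjusted p = 0.00259 and 0.00481), the latter being 0.12 without quantile normalization between arrays. With processed signals neither was called (limma, adjusted p = 0.0526 and 0.054). The 12 h value was -0.18 and not called without replicate 1 of the DMSO or replicate 2 of the KLA samples (limma, adjusted p = 0.0609 and 0.0568). In BMDM it was 13.61 and 13.54 against 14.21 and 14.12 at 1 h, a change of 0.59 ± 0.06 (limma, adjusted p = 6.15e-07). At 12 h it was 12.87 and 12.79 against 12.78 and 12.68, and the change of -0.10 ± 0.06 was not called (limma, adjusted p = 0.168). The late BMDM control stood at -0.74 against the early one, and KLA for 12 h stood at -0.84 ± 0.06 against the early control.

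The 3 Odc1 probes did not give a single answer at 12 h. In EPM the second brightest, at chr12:17575480-17575536, changed by 0.03 and the dimmest, at chr12:17573473-17573532, by 0.36, which was called higher (limma, adjusted p = 0.0309). In BMDM at 12 h the second probe was called higher by 0.31 (limma, adjusted p = 0.0107). At 1 h the 3 probes were alike in BMDM, at 0.59, 0.61 and 0.65, whereas in EPM they gave 0.27, 0.13 and 0.35, and only the first was called (limma, adjusted p = 0.369 and 0.0543 for the others).

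**Figure D4:**
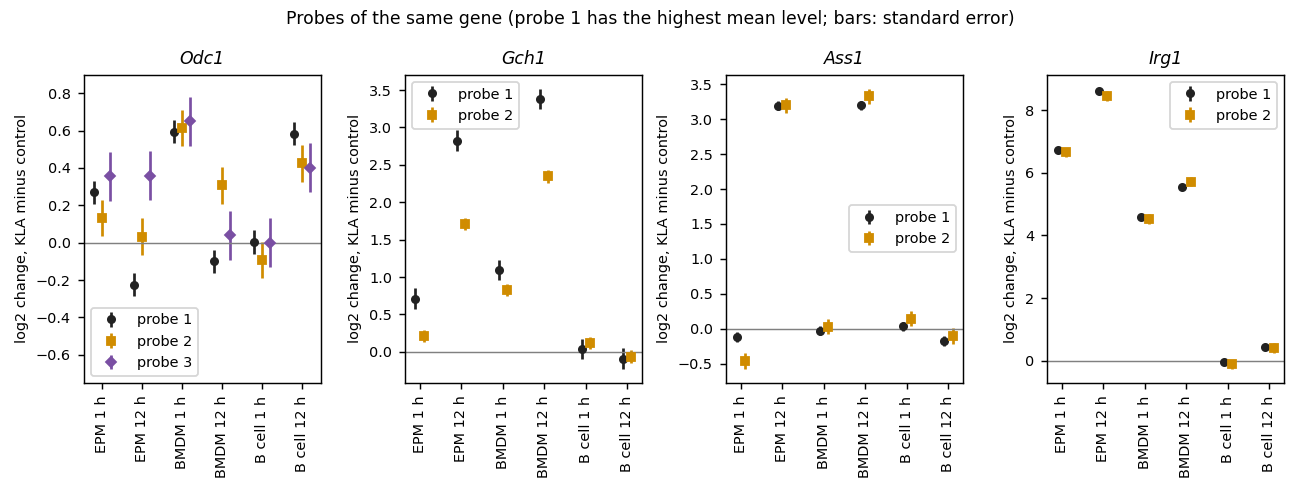
Change with KLA (log2, vertical axis, with SE) for each probe of the 4 genes that have several, in 6 comparisons with KLA. Odc1 probes lie on both sides of 0 in EPM at 12 h, from -0.22 to 0.36, the second Gch1 probe lies below the first in macrophages, and Irg1 probes nearly coincide.

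All 9 responses of EPM differed between 12 h and 1 h, as did 43.7% of all genes tested, and 8 of 9 in BMDM, as did 54.4%. The later response was larger for Nos2, Arg1, Ass1, Slc7a2, Gch1 and Irg1 in both macrophages, by 0.94 (Arg1) to 3.83 (Slc7a2) in EPM and by 0.95 (Irg1) to 3.22 (Ass1) in BMDM. With processed signals the Arg1 difference in EPM, 1.12, was not called (limma, adjusted p = 0.137). The later response was smaller for Odc1 in both by its brightest probe, but with the second probe it was -0.10 in EPM and -0.31 in BMDM and not called (limma, adjusted p = 0.623 and 0.0726), and in EPM it was -0.21 without quantile normalization and not called (limma, adjusted p = 0.0615). That setting also ended the call of Asl in EPM, at -0.24 (limma, adjusted p = 0.0814). For Arg2 the later response was larger in EPM, by 0.71 ± 0.08, and smaller in BMDM, by -0.27 ± 0.08 (limma, adjusted p = 1.68e-06 and 0.0115), and the latter was not called without replicate 2 of BMDM KLA 1 h or of BMDM DMSO 12 h (limma, adjusted p = 0.0787 and 0.0786). The BMDM value of Arg2 was also not called in a fit of BMDM alone (limma, adjusted p = 0.064). In B cells 3 of 9 responses differed between the times, as did 7.55%. Between EPM and BMDM, 4 of 9 responses differed at 1 h, as did 9.56% of all genes tested, and 6 of 9 at 12 h, as did 47.8%. At 1 h, Odc1 was the fourth, with a difference of -0.32 ± 0.09 (limma, adjusted p = 0.0223), a call lost without any of 4 single samples, replicate 1 of EPM untreated or BMDM KLA 1 h and replicate 2 of EPM KLA 1 h or BMDM DMSO 1 h (limma, adjusted p from 0.0806 to 0.102). That call was also lost with an offset of 16, with processed signals and with the dimmest probe (limma, adjusted p = 0.056, 0.1 and 0.408).

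Before stimulation, 8 of 9 genes differed between EPM and BMDM at the early time, as did 57.8% of all genes tested. The early BMDM control had DMSO and that of EPM had none, so that solvent and cell type cannot be told apart there. Besides Arg1 and Irg1, EPM were higher in Gch1 by 0.77 ± 0.14, in Arg2 by 0.72 ± 0.06, in Slc7a2 by 0.73 ± 0.07 (at least 1.66-fold), in Odc1 by 0.31 ± 0.06 and in Asl by 0.27 ± 0.08, and lower in Ass1 by -0.86 ± 0.07 (limma, adjusted p at most 0.00481). The second Gch1 probe gave -0.14 and was not called (limma, adjusted p = 0.154), nor were Odc1 with its dimmest probe, at 0.086, and Asl without quantile normalization, at 0.13 (limma, adjusted p = 0.618 and 0.135). Between the late controls 7 of 9 genes differed, as did 56.9% of all genes tested, with the same directions except that Arg2, at -0.08, was not called (limma, adjusted p = 0.265), and the second Gch1 probe, at 0.19, was not either (limma, adjusted p = 0.0683). Untreated B cells, against the mean of both early macrophage controls, were higher in Ass1 by 0.86, in Odc1 by 0.50 and in Gch1 by 0.46, and lower in Irg1, Arg1, Asl, Arg2 and Slc7a2 by -3.86 to -0.51, so that 8 of 9 differed, as did 79.6% of all genes tested. Of the lower genes, Arg1, Arg2 and Slc7a2 were not detected in B cells. Without quantile normalization Odc1 was at 0.013 and Gch1 at 0.15, and neither was called (limma, adjusted p = 0.821 and 0.256). Odc1 was also not called with its dimmest probe, at 0.073, nor Gch1 without replicate 1 of untreated B cells, at 0.31 (limma, adjusted p = 0.564 and 0.0725). The mean of both macrophages hides unlike levels. Arg1 was at 6.00 in untreated B cells, 6.15 in early BMDM controls and 10.25 in untreated EPM. Slc7a2 was at 5.95, 6.10 and 6.83 and Gch1 at 10.99, 10.15 and 10.92 in the same order. Arg1 and Slc7a2 were not detected in that BMDM control, and differences of B cells from each macrophage alone were not tested.

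In B cells, the 9 genes did not follow the macrophage pattern. Nos2, Arg1, Arg2 and Slc7a2 were not well above background in any of the 8 samples, where they stood between 5.85 and 6.23. At 1 h limma called none of the 9 genes and 5.17% of all genes tested, and 1 of the 9 had an unadjusted p under 0.05, which was Asl, at 9.60 and 9.49 against 9.33 and 9.35. With the dye as a block Asl was called, at 0.20 (limma, adjusted p = 0.0445). At 12 h 2 of 9 genes were called and both rose, while 5.29% of all genes tested were called in either direction and 2.81% rose. Odc1 was at 13.90 and 13.78 with KLA against 13.30 and 13.22 with DMSO, a change of 0.58 ± 0.06 (limma, adjusted p = 3.23e-06). Irg1 was at 6.66 and 6.70 against 6.23 and 6.27, a change of 0.43 ± 0.08, or at least 1.35-fold, since it was not detected with DMSO (limma, adjusted p = 0.00326). The second Irg1 probe, at 0.41, and the dimmest Odc1 probe, at 0.40, were not called (limma, adjusted p = 0.128 and 0.0921). Asl, at 9.32 and 9.41 against 9.65 and 9.61, was not called (limma, adjusted p = 0.0507) but was with the dye as a block (limma, adjusted p = 0.0093) and with processed signals (limma, adjusted p = 0.0285).

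The summed level of macrophage markers in B cells was 12.52 with KLA and 12.68 to 12.69 with DMSO at 12 h, and 11.29 to 11.63 in the untreated and KLA 1 h samples. The summed level of 4 erythroid markers, of which 3 were detected throughout, was 13.28 to 13.70 in the untreated and KLA 1 h samples, 12.29 to 12.34 with DMSO for 12 h and 11.80 to 12.13 with KLA for 12 h. That of 7 T cell markers, of which 4 to 5 were detected, was 10.69 to 10.98 in the former and 11.70 to 11.94 in the 12 h samples. As labelled, these markers move with the difference between late and early B cell samples, as do the values below. With the labels of KLA 1 h and DMSO 12 h exchanged, the same sums set KLA samples apart from controls instead. The part of macrophages, erythroid cells and T cells in any B cell value was not tested.

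B cell values differed between the readings of the labels. As labelled, 5 of 9 genes differed between DMSO for 12 h and untreated B cells, as did 47.4% of all genes tested, and Gch1 (-1.22 ± 0.14), Odc1 (-0.97 ± 0.06) and Ass1 (-0.79 ± 0.07) were lower with DMSO while Asl (0.29 ± 0.08) and Slc7a2 (0.26 ± 0.07) were higher. With the labels of B cell KLA 1 h and DMSO 12 h exchanged, these same values became the KLA response at 1 h. The change at 12 h was then -1.35 for Gch1, -0.998 for Ass1, -0.39 for Odc1, 0.26 for Irg1 and 0.18 for Slc7a2, and 5 of 9 genes were called at each time, as were 47.4% of all genes tested at 1 h and 49.1% at 12 h. Under that reading Odc1 was lower with KLA at 12 h rather than higher.

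The late and early controls of macrophages differed as well. In EPM 5 of 9 genes differed between them, as did 19.1% of all genes tested, where besides Arg1 and Arg2 Irg1 was lower, by -0.78 ± 0.08, and Ass1 and Slc7a2 were higher, by 0.44 ± 0.07 and 0.27 ± 0.07. In BMDM 4 of 9 did, as did 23.2%, with Odc1, Gch1 and Irg1 lower, by -0.74 ± 0.06, -0.60 ± 0.14 and -0.29 ± 0.08, and Ass1 higher, by 0.26 ± 0.07. The Irg1 call in BMDM was lost with processed signals and with quantile normalization over channels (limma, adjusted p = 0.174 and 0.0545). It was also lost with the authors' values and the second probe (limma, adjusted p = 0.13 and 0.145). Ass1 in BMDM was not called with its second probe (limma, adjusted p = 0.242). Slc7a2 in EPM was not called with processed signals or the authors' values (limma, adjusted p = 0.51 and 0.0596). In EPM, Gch1 stood at -0.26 and was not called, but it was called with the dye as a block (limma, adjusted p = 0.233 without and 0.00449 with it).

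In macrophages, more of the other genes of these pathways were called lower than higher, as among all genes tested. Of 51 tested partner genes, 4 were called higher and 13 lower in EPM at 1 h, and 6 higher and 26 lower at 12 h. In BMDM, 1 was higher and 7 lower at 1 h, and 9 higher and 30 lower at 12 h. The shares of all genes called lower were 19.7% and 34.3% in EPM and 17.6% and 36.3% in BMDM at 1 h and 12 h. Those called higher were 9.39% and 19.6% in EPM and 11% and 28.6% in BMDM. The median change of the partners at 12 h was -0.22 in EPM and -0.26 in BMDM.

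Among 17 enzymes around aconitate, citrate and succinate, none was called higher by limma in EPM or BMDM at either time. At 12 h, 13 were lower in EPM and 15 in BMDM, against 34.3% and 36.3% of all genes tested. Their median change at 12 h was -0.38 in EPM and -0.57 in BMDM. Idh1, cytosolic isocitrate dehydrogenase, was lowest in EPM at -1.60 ± 0.12, followed by Clybl, a mitochondrial lyase of citramalyl-CoA, at -1.06 ± 0.10. In BMDM the lowest of them was Idh2, the mitochondrial NADP-dependent isocitrate dehydrogenase, at -2.28 ± 0.08. At 1 h, Aco1, the cytosolic aconitase and iron regulatory protein, was lower in EPM at -0.49 ± 0.07 and in BMDM at -0.44 ± 0.07, and Sucla2, a subunit of succinyl-CoA ligase, was lower in EPM at -0.61 ± 0.14.

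Of the 10 polyamine genes, 2 were higher and 7 lower in EPM at 12 h, against 19.6% and 34.3% of all genes tested. In BMDM 3 were higher and 5 lower, against 28.6% and 36.3%. Smox, spermine oxidase, rose in both at both times, by 0.34 and 1.07 in EPM and by 0.27 and 1.28 in BMDM at 1 h and 12 h. Paox, the peroxisomal polyamine oxidase, fell by 1.49 in EPM and by 1.69 in BMDM at 12 h. Srm, spermidine synthase, was lower in BMDM at 12 h by -1.85 ± 0.07, and Sat1, which acetylates spermidine and spermine, was higher by 0.62 ± 0.17.

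Of 5 other transporters or subunits for cationic amino acids, 3 were higher in EPM at 12 h, against 19.6% of all genes tested. In BMDM 3 were higher and 2 lower, against 28.6% and 36.3%. Slc3a2, the heavy chain of several amino acid exchangers, rose by 0.86 ± 0.09 in EPM, and Slc7a7, a light chain that pairs with it, rose by 0.59 ± 0.09 in BMDM. Nos1, neuronal nitric oxide synthase, was called higher in EPM at 1 h at a dim level of 6.29 against 6.04. Of 6 tetrahydrobiopterin genes besides Gch1, none was higher in EPM, against 9.39% of all genes tested at 1 h and 19.6% at 12 h. At each time 2 were lower, against 19.7% of all genes tested at 1 h and 34.3% at 12 h. Qdpr, which regenerates the cofactor, was at -0.37 ± 0.12 at 1 h. In BMDM, 2 were higher and 3 lower at 12 h, against 28.6% and 36.3% of all genes tested. Pts, which acts after Gch1, was lower in BMDM at 1 h by -0.30 ± 0.10.

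Among 4 genes of nitric oxide sensing and methylarginine, 1 was higher and 2 lower in EPM at 12 h, against 19.6% and 34.3% of all genes tested. Ddah1, which degrades methylarginines, was the higher, by 0.57 ± 0.06. Of 7 genes of the urea cycle and ornithine, 1 was higher and 1 lower in EPM at 1 h, against 9.39% and 19.7% of all genes tested. Nags, the synthase of N-acetylglutamate, was the higher, by 0.32 ± 0.08. None was higher and 2 were lower in EPM at 12 h, against 19.6% and 34.3% of all genes tested. In BMDM at 12 h, 1 was higher and 3 lower, against 28.6% and 36.3%. Otc, ornithine transcarbamylase, was called lower in BMDM at 1 h at a dim level of 6.07 against 6.55. In B cells, 1 of 51 partners was called higher and 1 lower at 1 h, while 5.17% of all genes tested were called in either direction. At 12 h, 6 partners were higher and none lower by limma, and 2 of the 6 were transporters. Of all genes tested, 5.29% were called in either direction at 12 h and 2.81% were higher. With the B cell labels exchanged, 13 partners were higher and 17 lower at 1 h, against 25% and 22.4% of all genes tested, and 14 higher and 18 lower at 12 h, against 24.8% and 24.4%.

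**Figure D5:**
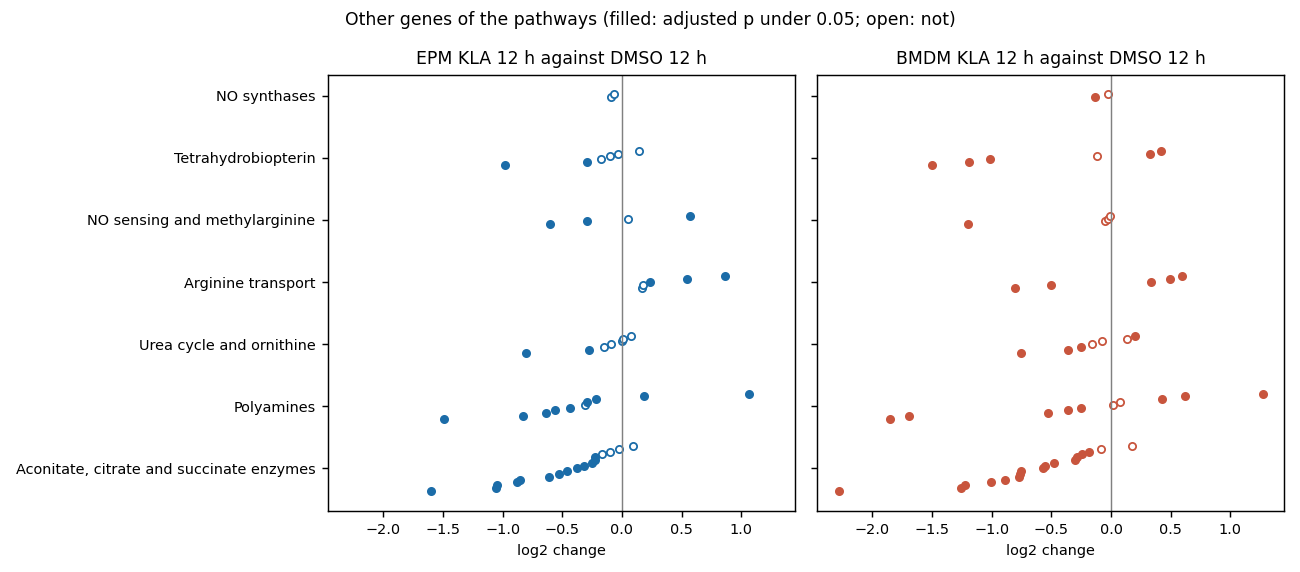
Change at 12 h of KLA against DMSO (log2, horizontal axis) of 51 partner genes by list in EPM and BMDM, with filled points where called. Of the 17 enzymes around aconitate, citrate and succinate, 13 filled points in EPM and 15 in BMDM lie left of 0.

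Over the 12 condition means, the genes whose level was most like that of Nos2 were Klrk1, Clic5 and Slfn1 (Pearson r = 0.999, 0.995 and 0.991). Those most like Irg1 were Ifit1, Nod2 and Isg15 (r = 0.990, 0.989 and 0.982). Those most like Arg1 were Palmd, C4b and Birc1a (r = 0.977, 0.974 and 0.967). The 12 conditions share slides and cell types, and Nos2 was above background in 2 of them, so that its likeness rests on those conditions.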

How the data were processed

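Agilent 2-colour arrays measured total RNA of 24 samples on 12 arrays. The authors deposited scanner files with spot intensities from Feature Extraction 9.5.3.1 (per the submitters' processing notes) and a table of normalized intensity values whose normalization is not given in full in the sources used here. Both samples of an array have their own copy of its scanner file, and the copies were identical. The methods name triplicates, whereas the arrays hold 2 biological replicates, replicate 1 in Cy5 and replicate 2 in Cy3.

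Median backgrounds were corrected with normexp (offset 50), control spots were left out, and arrays were normalized by loess and then by quantiles of mean intensity. Single-channel log2 values of 43379 spots, with outlier spots missing, were averaged per probe, and a gene took its probe of highest mean. Genes detected in both replicates of 1 or more conditions were fitted with limma 3.58.1 in R 4.3.3, with 1 term per condition, 12 residual degrees of freedom and Benjamini-Hochberg adjustment. Of the probes, 57.4% to 65.0% were well above background in a channel, and the number of arrays limits the precision. "At least" folds set the bright group's mean against the dimmest signal well above background, or the dim gene's own if higher. On simulated data for the EPM 1 h comparison, 100 of 100 genes changed 2-fold and 100 of 100 changed 4-fold were recovered among 17239 genes, and 12 unchanged genes were called. The simulated spread came from replicates within arrays, with no difference between arrays and no shared dye deviation, so it cannot show errors from these.

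The text names all 9 members, the 3 genes most like Nos2, Irg1 and Arg1, and the 3 largest changes in each direction among partner genes detected where brighter, listed from textbook knowledge (Cps1 did not pass the filter). Members and lists were chosen with earlier results of these data known. Same-dye channels deviated together on all 66 pairs of arrays (r from 0.267 to 0.627), so the dye, which carries the replicate number, was tried as a block. Alternatives were other background corrections and normalizations, filters, probes, the authors' values, arrays as samples and leaving out each replicate. The early control, exchanged B cell labels and centring were added after seeing the data. Probe positions are those of the files (mm8), and promoters are from RefSeq (GRCm38.p6).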

Additional observations from a re-analysis of the deposited data

Results flagged for a closer look

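Responses to KLA that differed between cell types or times by a test of the difference itself (limma, adjusted p under 0.05) are given here as log2 values. Between EPM and BMDM at 1 h, the response of Irg1 was 2.14 and that of Slc7a2 0.70 larger in EPM, and Arg2 differed by -0.72 and Odc1 by -0.32. With processed signals the Slc7a2 difference was 0.22 and that of Odc1 -0.36, and neither was called (limma, adjusted p = 0.922 and 0.1). At 12 h, EPM minus BMDM was 3.05 for Irg1, 2.34 for Slc7a2, 0.26 for Arg2, -0.39 for Asl, -0.56 for Gch1 and -1.39 for Arg1. With processed signals it was 0.09 and not called for Slc7a2 (limma, adjusted p = 0.934) and -4.56 for Arg1.

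Between 12 h and 1 h in EPM, the later response minus the earlier was 3.83 for Slc7a2, 3.31 for Ass1, 2.11 for Gch1, 1.87 for Nos2, 1.86 for Irg1, 0.94 for Arg1, 0.71 for Arg2, -0.41 for Asl and -0.49 for Odc1. In BMDM it was 3.22 for Ass1, 2.38 for Arg1, 2.29 for Gch1, 2.19 for Slc7a2, 1.82 for Nos2, 0.95 for Irg1, -0.27 for Arg2 and -0.69 for Odc1. In B cells 3 of 9 genes differed, as did 7.55% of all genes tested, with 0.58 for Odc1, 0.45 for Irg1 and -0.47 for Asl. Exchanging the B cell labels cannot change these values, since both exchanged conditions enter the difference with the same weight. Their sameness under both readings is therefore no support for them. The Irg1 call (limma, adjusted p = 0.0242) was lost without any 1 of 7 of the 8 B cell samples, replicate 2 of untreated B cells being the exception (limma, adjusted p from 0.0519 to 0.106). It was also lost with quantile normalization over channels, the authors' values and the second probe (limma, adjusted p = 0.0701, 0.159 and 0.145). Each of these values rests on 2 replicates per condition that shared an array.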

How the results depend on the processing

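Of 1812 values recomputed under other processing choices, leaving out replicates aside, 1702 kept their side of the threshold without a called value reversing. With 1 replicate left out, 778 of 810 did. These include values called under neither setting that changed sign, 39 with 1 replicate left out and up to 18 in any other setting. The share kept overstates stability, since many values could hardly move. Genes with 1 probe kept that probe in both probe settings, and Irg1, Gch1 and Ass1 had the same second probe in both. The settings without a filter and with detection in 2 conditions left intensities as they were and kept 152 and 153 of 153 values. Without quantile normalization between arrays, Odc1 in EPM at 12 h became 0.12, and the difference between EPM and BMDM responses at 12 h became 0.24 for Ass1 and 0.022 for Asl. Odc1 in EPM at 12 h was 0.062 with the authors' values and 0.056 with the mean of its probes. With the second probe it was 0.033 in EPM and 0.31 in BMDM, and with the dimmest of 3 probes 0.36 in EPM, where the difference between times was 0.0037. The second Gch1 probe gave -0.14 for EPM against BMDM controls, and that setting with the dimmest probe of each gene gave the same -0.14.

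With the authors' values, in which the B cell columns stand exchanged, B cells at 1 h gave -0.74 for Ass1, 0.40 for Slc7a2, -1.15 for Gch1 and -0.96 for Odc1, at 12 h -0.44 for Odc1, and between controls 0.029 for Ass1, 0.034 for Gch1 and 0.025 for Odc1. With the labels exchanged, they gave -0.79 for Ass1, 0.26 for Slc7a2, -1.22 for Gch1 and -0.97 for Odc1 at 1 h, 0.18 for Slc7a2 and -0.39 for Odc1 at 12 h, and between controls 0.035 for Ass1, -0.056 for Slc7a2, 0.036 for Gch1 and 0.0040 for Odc1. Against the early control, Arg1 in EPM at 12 h was -0.50.

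The number of the 9 genes called moved as follows. Processed signals gave 2 rather than 4 for EPM against BMDM responses at 1 h. The authors' values, which hold 8 of the 9 genes, gave 5 rather than 0 in B cells at 1 h, 4 rather than 2 at 12 h and 0 rather than 5 between B cell controls, and exchanged labels gave 5, 5 and 0. Second probes gave 2 rather than 4 between BMDM controls, and the dimmest probes 2 there, 1 rather than 2 in B cells at 12 h, where Odc1 and Irg1 were lost and Asl gained, and 1 rather than 3 for B cell times, where Odc1 and Irg1 were lost. Taking each array as 1 sample leaves 1 sample per KLA condition and sets the early and late controls, which differed, as replicates, so its losses cannot be told apart from that difference. It gave 1 rather than 5 in EPM at 1 h, 5 rather than 9 in EPM at 12 h, 1 rather than 4 in BMDM at 1 h and 0 rather than 2 in B cells at 12 h, against 0.94%, 11.5%, 0.577% and 0 of all genes called by limma. The dye as a replicate block paired the channels and gave 1 rather than 0 in B cells at 1 h; beside Asl in B cells at both times and in BMDM at 1 h, Gch1 between EPM controls and between macrophage responses at 1 h, and Irg1 between B cell controls (-0.19, limma, adjusted p = 0.039), it changed no call. The causes of these shifts were not tested.

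With 1 replicate left out, the count was 1 to 3 for B cell times, lowest without replicate 1 of B cell KLA 1 h or of KLA 12 h, where Asl and Irg1 were lost. It was 2 to 4 between BMDM controls, lowest without replicate 2 of BMDM DMSO 1 h, where Ass1 and Irg1 were lost, or replicate 2 of BMDM DMSO 12 h, where Gch1 and Irg1 were lost. It was 4 to 6 for EPM against BMDM responses at 12 h and 8 to 9 in EPM at 12 h. The offset limits dim genes most, as with an offset of 16 Irg1 in B cells at 12 h was 0.70 rather than 0.43.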
